A study of Mus musculus with 32 samples.

Results

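The genes described here are the 10 cohesin genes Rec8, Rad21l, Rad21, Stag3, Stag1, Stag2, Smc1b, Smc1a, Smc3 and Sgol2a, which were chosen by name and matched to Ensembl identifiers through the GENCODE M21 annotation of GRCm38. All 10 were among the 20368 genes with at least 3 TPM (a gene's share of all transcripts, corrected for transcript length) in at least 1 of the 28 juvenile mice, and all 10 were in the adult table. By their known use, 5 of them are meiotic (Rec8, Rad21l, Stag3, Smc1b and Sgol2a), 4 are mitotic paralogs (Rad21, Stag1, Stag2 and Smc1a) and 1, Smc3, is shared by both kinds of complex. Sgol2a, named Sgo2a in the annotation, is a partner of cohesin and not a subunit.

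Germ cells were isolated from both testes of single C57BL/6J male mice during the first wave of spermatogenesis, with 3 mice at 8 days post-partum (dpp) and 5 mice at each of 10, 12, 14, 16 and 18 dpp. A second set held 4 samples of spermatocytes in pachynema and diplonema, enriched by sedimentation at unit gravity from pooled testes of wild-type adult mice of 9 weeks. No group carried a mutation or received a treatment, so age was the only factor among the juvenile mice. Each juvenile sample was a mixture of spermatogonia, spermatocytes and other testis cells. The adult samples differed from them also by the enrichment and the pooling of testes. Because the adult table was normalized apart from the juvenile tables, adult levels are given beside the juvenile ones without a test. TPM keeps no read counts, so depth is unknown and the spread between mice was the only error available.

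Cohesin is a ring that holds sister chromatids together from DNA replication until they separate. An SMC1 and an SMC3 protein form the arms of the ring, a kleisin closes it, and a stromal antigen (SA) subunit binds the kleisin. In mitotic cells the ring uses SMC1A, SMC3, RAD21 and either STAG1 or STAG2, whereas spermatocytes also build rings with SMC1B, with the kleisins REC8 or RAD21L, and with STAG3, which form the base of the chromosome axes along which homologs pair and recombine. Cleavage of the kleisin by separase releases the chromatids, and SGOL2A, a shugoshin, shields REC8 at centromeres during the first meiotic division.

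RefSeq promoter windows on GRCm38.p6, each of 250 bases before and 50 bases after a transcription start, were available for 8 of the 10 genes. The windows of 5 genes are printed 5′ to 3′ on the gene's own strand, because Stag3 and Smc1b rose with age, Smc1a is the mitotic counterpart of Smc1b, and Rec8 and Rad21l followed another course. They lie at chr5:138280259-138280558 (Stag3, + strand), chr15:85131908-85132207 (Smc1b, - strand), chrX:152016178-152016477 (Smc1a, + strand), chr14:55617916-55618215 (Rec8, + strand) and chr2:151668484-151668783 (Rad21l, - strand). Capitals mark matches, on either strand, to 5 motifs: the E-box CACGTG, the E2F motif TTCCCGC, the STRA8/MEIOSIN core CCTCAG, the MYB motif AACTGNC and the GC-box GGGCGG.
Stag3: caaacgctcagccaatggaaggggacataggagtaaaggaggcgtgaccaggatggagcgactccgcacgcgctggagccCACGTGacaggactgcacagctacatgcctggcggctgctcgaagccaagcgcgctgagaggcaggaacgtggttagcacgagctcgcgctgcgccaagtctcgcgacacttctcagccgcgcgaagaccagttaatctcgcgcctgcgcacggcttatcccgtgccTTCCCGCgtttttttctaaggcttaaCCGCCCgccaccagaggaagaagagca
Smc1b: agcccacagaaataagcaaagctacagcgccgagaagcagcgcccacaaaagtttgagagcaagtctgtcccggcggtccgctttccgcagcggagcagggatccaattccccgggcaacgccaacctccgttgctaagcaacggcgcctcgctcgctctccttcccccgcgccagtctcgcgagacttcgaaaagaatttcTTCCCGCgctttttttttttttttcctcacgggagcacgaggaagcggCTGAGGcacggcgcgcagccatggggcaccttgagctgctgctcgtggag
Smc1a: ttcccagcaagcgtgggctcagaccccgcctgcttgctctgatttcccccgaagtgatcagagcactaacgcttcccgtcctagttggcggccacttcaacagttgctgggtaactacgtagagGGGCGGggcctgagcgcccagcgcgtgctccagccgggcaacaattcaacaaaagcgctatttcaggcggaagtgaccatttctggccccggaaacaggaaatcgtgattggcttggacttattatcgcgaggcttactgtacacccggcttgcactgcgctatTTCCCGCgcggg
Rec8: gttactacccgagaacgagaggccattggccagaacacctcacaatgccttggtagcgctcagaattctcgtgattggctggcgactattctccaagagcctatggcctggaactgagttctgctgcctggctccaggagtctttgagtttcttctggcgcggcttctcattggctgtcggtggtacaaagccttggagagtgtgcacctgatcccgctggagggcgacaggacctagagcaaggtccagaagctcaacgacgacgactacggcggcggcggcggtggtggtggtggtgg
Rad21l: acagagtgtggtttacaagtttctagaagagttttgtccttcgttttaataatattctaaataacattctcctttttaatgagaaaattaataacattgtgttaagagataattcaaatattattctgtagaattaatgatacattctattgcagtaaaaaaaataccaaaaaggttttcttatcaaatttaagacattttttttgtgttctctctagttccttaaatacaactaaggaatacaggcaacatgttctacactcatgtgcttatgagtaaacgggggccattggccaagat
The E2F letters stood in the windows of Stag3, Smc1b, Smc1a and Stag1, and in an upstream start of Sgol2a, against 4.6% of 32851 promoter windows of the same length. The Stag3 window was the only member's window with the E-box, which 7.15% of all windows hold. The STRA8/MEIOSIN core stood in the windows of Smc1b and Sgol2a (26.8% of all windows), the MYB motif in both windows of Sgol2a (12.8%), and the GC-box in those of Stag3, Stag1, Smc1a, Smc3 and Sgol2a (35.7%). Neither the Rec8 nor the Rad21l window held any of the 5 motifs. The Rad21l window had 29.0% G and C and 2 CpG, where the medians over all windows were 52.7% and 7, and the other members' windows had between 54.0% and 73.7% G and C. These letter matches are a description of the windows and no evidence of binding.

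Several values of the whole series bear on the results. The labelled germ cells carried RNA of somatic testis cells: 8 Sertoli cell markers summed to 6685 TPM on average at 8 dpp (from 6337 to 7182) and to 3333 TPM at 18 dpp (from 2965 to 3847), with none of the 8 under 1 TPM in all mice. Peritubular markers (5 genes) summed to 1101 TPM at 8 dpp, 1436 TPM at 14 dpp and 741 TPM at 18 dpp, spermatogonium markers (6 genes) fell from 633 to 266 TPM between 8 and 18 dpp, and spermatocyte markers (6 genes) rose from 316 to 1477 TPM. The remaining lists had mean sums at 8 and 18 dpp of 188 and 267 TPM for Leydig cells, 28.9 and 54.0 TPM for macrophages, 53.7 and 45.0 TPM for endothelial cells, and 464 and 308 TPM for red blood cells. Spermatid markers stayed between 3.86 and 9.58 TPM on average at all juvenile ages. By cytology the paper reports that germ cells were the great majority of stained cells in every sample, and a sum of TPM does not measure a share of cells. In bulk samples such as these, fewer cells of a type and less RNA per cell cannot be told apart. At 18 dpp, mice 1 to 3 stood apart from mice 4 and 5, with more Piwil1 (391 against 298 TPM) and less Stra8 (76.6 against 102 TPM). The spermatocyte marker Piwil1 did not stand for its whole list. Sycp3 (484 against 530 TPM), Sycp1 (219 against 250 TPM) and Dmc1 (39.7 against 56.8 TPM), of the same list, had lower means in mice 1 to 3. Values without mice 1 to 3, or for both sets of mice, are given beside many of the changes to 18 dpp, but not beside all.

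The order of the 10 genes by TPM turned over during the first wave. Rad21, the mitotic kleisin, had the highest level in all 13 mice of 8, 10 and 12 dpp and in 4 of the 5 mice of 14 dpp, and Stag3, the meiotic SA subunit, in the remaining mouse of 14 dpp, in all 10 mice of 16 and 18 dpp and in all 4 adult samples. By mean TPM, Sgol2a and Rad21l were the lowest at 8 and 10 dpp, and Rad21l was the lowest from 14 dpp on. Sgol2a nevertheless lay below Rad21l in mice 2 and 6 of 14 dpp. The meiotic genes were well expressed at 8 dpp already, when Stag3 had 124 ± 11.9 TPM and Smc1b 80.6 ± 15.6 TPM (SD, n = 3). Neighbours in this order often overlapped: at 8 dpp the mice of Smc3, Stag1 and Smc1b did, as did those of Stag2, Smc1a and Rec8, and at 18 dpp those of Smc1b and Rad21 and those of Stag1 and Smc3, whereas Stag3 lay above all other members in every mouse.

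**Figure D1:**
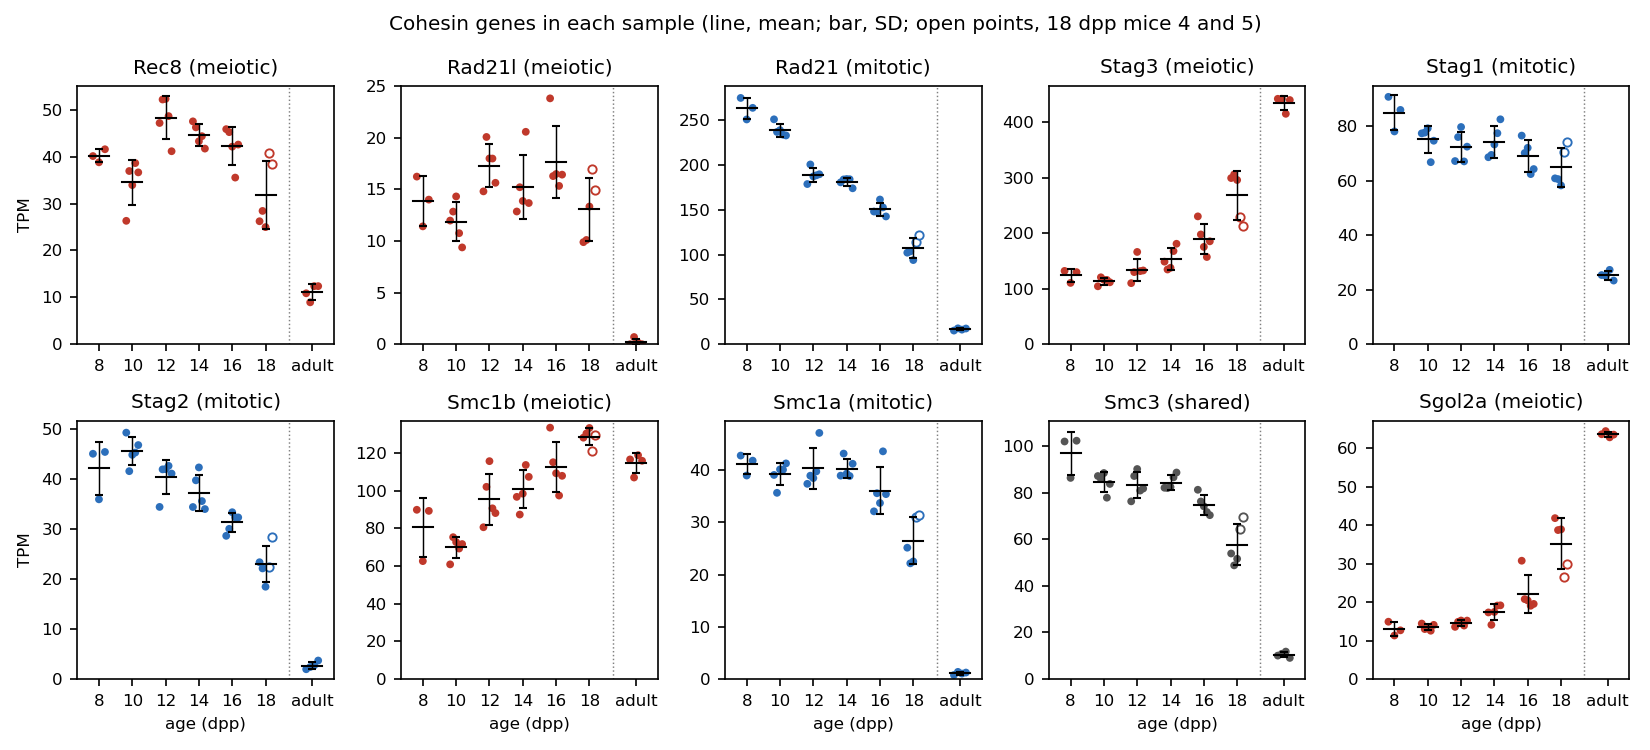
TPM of each cohesin gene in every sample, by age in days post-partum (8 to 18 dpp) and in adult spermatocytes, with the mean and SD of each group; red marks meiotic, blue mitotic and grey shared genes, and open points are mice 4 and 5 of 18 dpp. Rad21 drops from a mean of 263 TPM at 8 dpp to 107 TPM at 18 dpp while Stag3 climbs from 124 to 269 TPM, and the adult values right of the dotted line come from a table normalized separately.

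Among the kleisins, the mitotic gene fell at 3 steps, and the meiotic genes rose between 10 and 12 dpp, the only step between neighbouring ages at which they passed the threshold upward. Rad21 (ENSMUSG00000022314, chr15:51962240-51991747) encodes the kleisin of mitotic rings. Its mice lay between 251 and 275 TPM at 8 dpp, 233 and 251 TPM at 10 dpp, 179 and 201 TPM at 12 dpp, 174 and 184 TPM at 14 dpp, 143 and 162 TPM at 16 dpp, and 94.0 and 122 TPM at 18 dpp. The mice of 10 and 12 dpp, of 14 and 16 dpp, and of 16 and 18 dpp did not overlap. On the log2(TPM + 1) scale Rad21 fell by 0.34 from 10 to 12 dpp (standard error 0.05, adjusted p = 4.17e-05, limma across all genes), by 0.27 from 14 to 16 dpp (standard error 0.05, adjusted p = 0.000505) and by 0.49 from 16 to 18 dpp (standard error 0.05, adjusted p = 1.07e-06). At 10, 12, 14, 16 and 18 dpp the Sertoli markers summed to 6575, 6458, 5700, 5163 and 3333 TPM on average. The spermatogonium markers summed to 577, 505, 486, 391 and 266 TPM at these ages. The part of either kind of cell in the fall of Rad21 was not tested.

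Rec8 (ENSMUSG00000002324, chr14:55618037-55625395) encodes the kleisin that keeps sister chromatids together through meiosis. In order of mouse number it stood at 26.3, 36.9, 33.9, 38.6 and 36.7 TPM at 10 dpp, and at 47.2, 52.2, 52.3, 48.7 and 41.2 TPM at 12 dpp. All 5 mice of 12 dpp were above all 5 mice of 10 dpp, and Rec8 rose by 0.48 on the log2 scale (standard error 0.11, adjusted p = 0.00274, limma). At 8 dpp it was already at 40.2 TPM ± 1.39 (SD, n = 3), above all mice of 10 dpp, but the difference between 8 and 10 dpp did not pass the threshold (adjusted p = 0.558). It kept similar means of 44.6 ± 2.31 and 42.3 ± 4.10 TPM (SD, n = 5) in the mice of 14 and 16 dpp.

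Rad21l (ENSMUSG00000074704, chr2:151645404-151668533) encodes a kleisin found only in meiotic cells, on the axes during early prophase. Its levels were 12.0, 12.9, 14.3, 10.8 and 9.38 TPM in the mice of 10 dpp and 14.8, 20.1, 18.0, 18.0 and 15.6 TPM in those of 12 dpp. These 2 ages did not overlap, and Rad21l rose by 0.51 on the log2 scale (standard error 0.15, adjusted p = 0.0131, limma). The Rec8 level was 2.95 times the Rad21l level at 8 dpp and 2.46 times at 18 dpp on average, and it was the higher of the pair in all 28 juvenile mice.

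With all mice both meiotic kleisins fell from 16 to 18 dpp, and this call rested on mice 1 to 3. Rec8 was at 26.2, 28.4 and 24.98 TPM in mice 1 to 3 and at 40.7 and 38.4 TPM in mice 4 and 5, and Rad21l at 9.89, 10.1 and 13.3 TPM against 17.0 and 14.9 TPM. With all 5 mice, the change from 16 dpp was -0.42 for Rec8 (adjusted p = 0.00265, limma) and -0.42 for Rad21l (adjusted p = 0.0189). Without mice 1 to 3 of 18 dpp it was -0.09 for Rec8 (adjusted p = 0.651) and -0.12 for Rad21l (adjusted p = 0.695). The call of Rad21l was also lost without mouse 1 of 16 dpp, mouse 1 of 18 dpp or mouse 2 of 18 dpp alone, with adjusted p from 0.0684 to 0.0743. Dmc1, a recombinase of early meiotic prophase, was likewise at 39.7 TPM in mice 1 to 3 and 56.8 TPM in mice 4 and 5 of 18 dpp.

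Since levels per length can be set side by side within a mouse, the log2 ratio of each meiotic gene to its mitotic paralog was compared over mice with two-sided exact permutation tests, adjusted over 10 tests, in which 5 against 5 mice can give no p below 0.00794. Rec8 had 0.145 ± 0.024 times the TPM of Rad21 at 10 dpp and 0.256 ± 0.023 times at 12 dpp (SD, n = 5), a rise of 0.82 in the mean log2 ratio (adjusted p = 0.0113, exact test). Rad21l went from 0.0496 ± 0.0076 to 0.0913 ± 0.0082 times Rad21 (SD, n = 5), a rise of 0.85 (adjusted p = 0.0113, exact test). Between 12 and 18 dpp the Rad21l ratio rose by a further 0.42 (adjusted p = 0.0113, exact test), and the Rec8 ratio moved by 0.20 and did not pass (adjusted p = 0.0794, exact test). Both ratios depended on the mice of 18 dpp: the difference from the mean of 12 dpp was 0.08 for Rec8 and 0.31 for Rad21l in mice 1 to 3, and 0.40 and 0.57 in mice 4 and 5. Together the meiotic genes made up 17.0% ± 0.362 of kleisin TPM in the 3 mice of 8 dpp, 25.7% ± 1.61 in the 5 of 12 dpp and 29.2% ± 2.96 in the 5 of 18 dpp (SD), so Rad21 remained the main kleisin mRNA in all 28 juvenile mice. At 18 dpp this share was 27.4% in mice 1 to 3 and 32.0% in mice 4 and 5.

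Among the SA subunits, Stag3 rose and both mitotic genes fell. Stag3 (ENSMUSG00000036928, chr5:138280240-138312393), the SA subunit of meiotic rings, stood at 132, 111 and 130 TPM in the mice of 8 dpp and at 300, 306, 296, 230 and 213 TPM in those of 18 dpp. All mice of 18 dpp lay above all mice of 8 dpp, and Stag3 rose by 1.10 on the log2 scale (standard error 0.13, adjusted p = 2.88e-08, limma), and by 0.83 without mice 1 to 3 of 18 dpp (adjusted p = 3.80e-05). Its last step, from a mean of 189 ± 27.4 to one of 269 ± 44.0 TPM (SD, n = 5), was 0.50 (standard error 0.11, adjusted p = 0.000579). In mice 4 and 5 of 18 dpp alone Stag3 differed from 16 dpp by 0.23 (adjusted p = 0.251).

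Stag1 (ENSMUSG00000037286, chr9:100597798-100959375) and Stag2 (ENSMUSG00000025862, chrX:42149317-42277185) encode the mitotic SA subunits. Stag1 lay at 90.9, 78.2 and 86.1 TPM at 8 dpp and at 61.0, 60.7, 58.3, 70.7 and 74.4 TPM at 18 dpp, and fell by 0.39 on the log2 scale (adjusted p = 0.000283, limma). The fall of Stag1 was 0.22 without mice 1 to 3 of 18 dpp (adjusted p = 0.0499), just past the threshold. Stag2 lay at 45.1, 36.0 and 45.4 TPM at 8 dpp and at 23.4, 22.1, 18.5, 22.5 and 28.4 TPM at 18 dpp, and fell by 0.85 (adjusted p = 4.54e-08), and by 0.71 without those mice. For both genes every mouse of 18 dpp was below every mouse of 8 dpp. Stag1 overlaps 5 annotated pseudogenes or unconfirmed transcripts and Stag2 overlaps 1, 3 of these 6 on the opposite strand, and since no strand setting was stated for the counting, reads shared with them cannot be told apart.

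The Stag3 level was 1.52 ± 0.141 times that of Stag1 at 10 dpp, 1.85 ± 0.183 times at 12 dpp and 4.23 ± 1.08 times at 18 dpp (SD, n = 5). The log2 ratio rose by 0.28 from 10 to 12 dpp (adjusted p = 0.0265, exact test) and by 1.15 from 12 to 18 dpp (adjusted p = 0.0113, exact test). Against Stag2 it rose by 0.40 and by 1.79 (adjusted p = 0.0113 in both exact tests), from 2.51 ± 0.287 times at 10 dpp to 12.1 ± 3.31 times at 18 dpp. Without any 1 of mouse 1, 2, 3 or 5 of 10 dpp or mouse 4 or 5 of 12 dpp, the first Stag1 difference was between 0.237 and 0.287, near its value with all mice, with an adjusted p of 0.0529 in the exact test of fewer mice. In mice 4 and 5 of 18 dpp the Stag3 ratios were above the mean of 12 dpp by 0.73 for Stag1 and 1.38 for Stag2, and in mice 1 to 3 by 1.44 and 2.06. Of SA TPM, Stag3 made up 49.4% ± 0.268 in the 3 mice of 8 dpp, and 54.1% ± 2.28, 65.1% ± 2.69 and 74.95% ± 5.34 (SD) in the mice of 12, 16 and 18 dpp. At 18 dpp its share was 78.7% in mice 1 to 3 and 69.3% in mice 4 and 5.

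**Figure D2:**
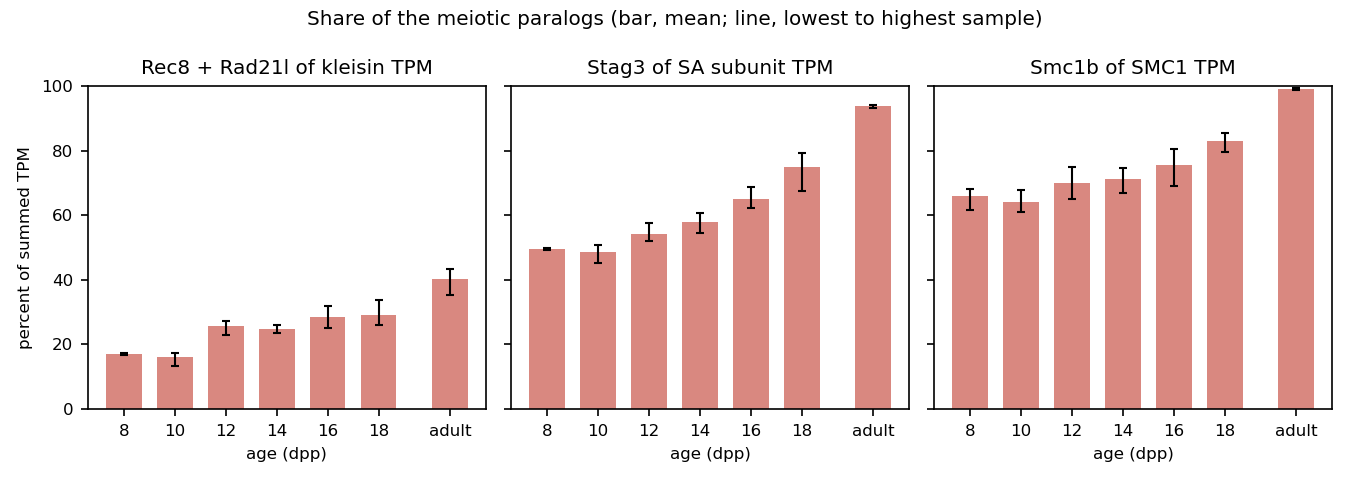
Percent of summed TPM from the meiotic paralogs among the kleisins, the SA subunits and the SMC1 genes at each age and in adult spermatocytes; bars are means and lines run from the lowest to the highest sample. Stag3 goes from 49.4% at 8 dpp to 74.95% at 18 dpp and Smc1b from 65.8% to 83.0%, while Rec8 and Rad21l together reach 29.2% of kleisin TPM at 18 dpp.

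In the arms of the ring, the meiotic SMC1 gene rose while the mitotic one and Smc3 fell. Smc1b (ENSMUSG00000022432, chr15:85064689-85131964), the SMC1 of meiotic rings, was at 60.9, 75.3, 72.7, 69.3 and 71.7 TPM in the mice of 10 dpp and at 80.6, 102, 116, 90.7 and 88.1 TPM in those of 12 dpp, with no overlap. It rose by 0.43 on the log2 scale over this step (standard error 0.10, adjusted p = 0.00211, limma) and by 0.69 from 8 to 18 dpp (standard error 0.11, adjusted p = 7.21e-06; 0.65 without mice 1 to 3 of 18 dpp), when its mean was 129 ± 4.53 TPM (SD, n = 5). Without mouse 1 of 16 dpp its step from 16 to 18 dpp passed as well, at 0.26 (adjusted p = 0.0321). Smc1a (ENSMUSG00000041133, chrX:152016428-152062694), its mitotic paralog, kept means between 39.2 and 41.2 TPM from 8 to 14 dpp. Its means in the mice of 16 and 18 dpp were 36.1 ± 4.43 and 26.4 ± 4.49 TPM (SD, n = 5), a fall of 0.44 (standard error 0.09, adjusted p = 0.000196, limma) in which the mice of the 2 ages did not overlap. Without mice 1 to 3 of 18 dpp the change was -0.20 (adjusted p = 0.153). Smc1b and Smc1a each overlap 1 processed pseudogene on the other strand.

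Smc1b exceeded Smc1a in all 28 juvenile mice, by 1.79 ± 0.203 times at 10 dpp, 2.39 ± 0.439 times at 12 dpp and 4.99 ± 0.947 times at 18 dpp (SD, n = 5). The log2 ratio rose by 0.40 from 10 to 12 dpp (adjusted p = 0.0198, exact test) and by 1.04 from 12 to 18 dpp (adjusted p = 0.0113, exact test). In mice 4 and 5 of 18 dpp the ratio was 0.76 above the mean of 12 dpp. Smc1b made up 65.8% ± 3.63 of SMC1 TPM in the 3 mice of 8 dpp and 83.0% ± 2.76 in the 5 of 18 dpp (SD), with 84.9% in mice 1 to 3 and 80.1% in mice 4 and 5 of that age.

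Smc3 (ENSMUSG00000024974, chr19:53600398-53645833) encodes the arm common to mitotic and meiotic rings. It was at 102, 86.3 and 102 TPM in the mice of 8 dpp and at 53.9, 48.8, 51.6, 64.4 and 69.5 TPM in those of 18 dpp, and fell by 0.75 on the log2 scale (standard error 0.09, adjusted p = 2.17e-08, limma), and by 0.52 without mice 1 to 3 of 18 dpp. The mice of these ages did not overlap. The sum of its SMC1 partners went from a mean of 122 TPM at 8 dpp to 155 TPM at 18 dpp. It had 0.799 ± 0.044 times the summed TPM of Smc1a and Smc1b in the 3 mice of 8 dpp, 0.615 ± 0.023 times in the 5 of 12 dpp and 0.371 ± 0.052 times in the 5 of 18 dpp (SD). Summed SA TPM was 2.60 times that of Smc3 at 8 dpp and 6.38 times at 18 dpp (from 4.55 to 7.98), while the summed kleisins went from 3.29 to 2.65 times Smc3.

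Sgol2a (ENSMUSG00000026039, chr1:57995971-58025899) had the largest rise of the 10 genes from 8 to 18 dpp. It stood at 14.9, 11.3 and 12.7 TPM at 8 dpp, between 12.6 and 14.4 TPM at 10 dpp, between 14.1 and 19.2 TPM at 14 dpp, and at 41.8, 38.7, 38.9, 26.5 and 29.9 TPM at 18 dpp. All mice of 18 dpp were above all mice of 8 dpp, and the rise was 1.36 on the log2 scale (standard error 0.14, adjusted p = 1.90e-09, limma), and 1.07 without mice 1 to 3 of 18 dpp. From 16 to 18 dpp it was 0.65 (standard error 0.12, adjusted p = 7.51e-05), and without mice 1 to 3 of 18 dpp it was 0.36 (adjusted p = 0.0823). Sgol2a overlaps Kctd18, a protein-coding gene on the opposite strand, and reads shared with it cannot be told apart.

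The members called at each step are set here beside the share of all genes called. Between 10 and 12 dpp, 4 of 10 passed the threshold (adjusted p under 0.05, limma), with Rec8, Rad21l and Smc1b higher and Rad21 lower, against 21.4% of all 20368 genes (12% higher and 9.39% lower). In mice 1 to 3 alone, where 19.6% of all genes were called, 3 of these calls held and Rad21l did not (adjusted p = 0.0994, limma). In the later-numbered mice, where 6.72% of all genes were called, Rad21 and Smc1b held. From 16 to 18 dpp, 8 passed, with Stag3 and Sgol2a higher and Rec8, Rad21l, Rad21, Stag2, Smc1a and Smc3 lower, against 54% of all genes (23.4% higher and 30.6% lower). From 8 to 18 dpp, 9 passed, against 68.2%. Stag3, Smc1b and Sgol2a were higher (31.8% of all genes were called higher), Rad21, Stag2, Smc3, Smc1a, Stag1 and Rec8 were lower (36.3% were called lower), and Rad21l did not pass, with a change of -0.10 (adjusted p = 0.625). All 4 mitotic genes and Smc3 were thus called lower at 18 than at 8 dpp. They remained so without mice 1 to 3 of 18 dpp, where 5614 of all 20368 genes were called lower. The change of Rad21 was -1.29 with all mice and -1.15 without those mice. The fall of Rec8, 0.36 on the log2 scale (adjusted p = 0.0175), was lost without mice 1 to 3 of 18 dpp, where the change was -0.02 (adjusted p = 0.898), and also without any 1 of mouse 3 of 8 dpp, mouse 1 of 18 dpp or mouse 3 of 18 dpp, with adjusted p from 0.0511 to 0.0585.

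Between 14 and 16 dpp only Rad21 passed, against 24% of all genes (12.7% higher and 11.3% lower), with Stag3, Stag2 and Sgol2a just outside at adjusted p of 0.0583, 0.0547 and 0.0589. The count of members ranged from 1 to 5 over the settings tried, and that of all genes from 2570 to 6230. From 8 to 10 dpp none of the 10 passed, against 1.2% of all genes (0.977% higher and 0.226% lower). An unadjusted p under 0.05 in limma was found for 2 members (Rad21 and Smc3) and for 2337 of all 20368 genes. None passed from 12 to 14 dpp either, against 0.172% (0.157% higher and 0.0147% lower). None was under an unadjusted p of 0.05, where 1962 of all genes were. Complete separation of the mice of both ages, with no overlap, held for 1 gene from 8 to 10 dpp, 4 from 10 to 12 dpp, 0 from 12 to 14 dpp, 3 from 14 to 16 dpp, 4 from 16 to 18 dpp and 8 from 8 to 18 dpp, where 11%, 17.7%, 2.25%, 18.1%, 25.5% and 61% of all genes were separated.

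The scaling of the libraries moved the median change of all genes from 8 to 18 dpp, which was -0.09 on the deposited scale, to 0.05 with median-of-ratios factors and to -0.26 with quantile normalization. Relative to the median, Rad21 changed by -1.20, -1.17 and -1.09 and Stag3 by 1.19, 1.22 and 1.27 in these 3 scalings. Rec8 stood at -0.26, -0.24 and -0.17 relative to the median, and its fall did not pass with median-of-ratios factors (adjusted p = 0.172, limma). From 16 to 18 dpp these factors also left 8 members called, against 48.2% of all genes, but not the same ones. Smc1b then passed, at 0.36 (adjusted p = 0.00366, limma), and Rad21l did not, at -0.26 (adjusted p = 0.12). The share of called genes that were higher moved as well, from 53.0% to 66.3% and 41.6% for 14 to 16 dpp and from 43.4% to 63.0% and 37.8% for 16 to 18 dpp.

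**Figure D3:**
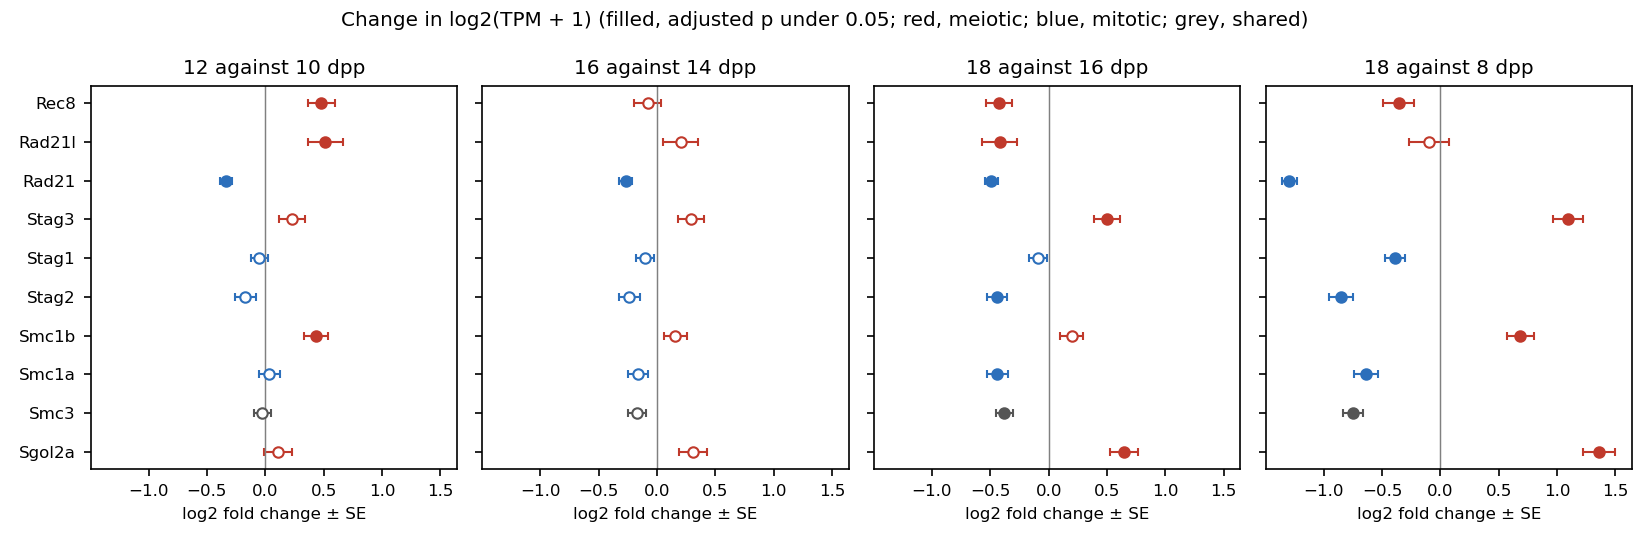
Log2 fold change of each cohesin gene in log2(TPM + 1), with its standard error, for 4 comparisons of ages; filled points passed an adjusted p of 0.05 in limma, and colours mark meiotic (red), mitotic (blue) and shared (grey) genes. Rec8, Rad21l and Smc1b are the genes that pass upward from 10 to 12 dpp, and from 8 to 18 dpp Stag3, Smc1b and Sgol2a lie at 1.10, 0.69 and 1.36 while Rad21 lies at -1.29.

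The last step depended on mouse number. In mice 1 to 3 of 16 and 18 dpp, 9 of 10 genes passed, and in the later-numbered mice, 2 at each age, none passed. In these later-numbered mice 7 of 10 had an unadjusted p under 0.05 in limma, where 5489 of all 20368 genes did. Without mice 1 to 3 of 18 dpp only Rad21 passed, with a change of -0.35 (adjusted p = 0.000481, limma). In that setting 5 members and 6120 of all genes had an unadjusted p under 0.05. Stag2 then stood at -0.30 (adjusted p = 0.0579) and Smc3 at -0.15 (adjusted p = 0.15). The count over all genes moved likewise, with 271 of 20368 passing in the later-numbered mice, 11670 in mice 1 to 3 and 3452 without mice 1 to 3 of 18 dpp. Within the later-numbered mice the changes of Stag3 (0.37) and Sgol2a (0.52) kept their sign, with adjusted p of 0.058 and 0.0507, and Rec8 (0.02), Rad21l (0.01) and Smc3 (-0.08) lay near 0. At 18 dpp the mice of the 2 sets did not overlap for 8 of the 10 genes, the exceptions being Stag2 and Smc1b. The share of all genes separated in this way was not counted, so this count does not set the cohesin genes apart.

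**Figure D4:**
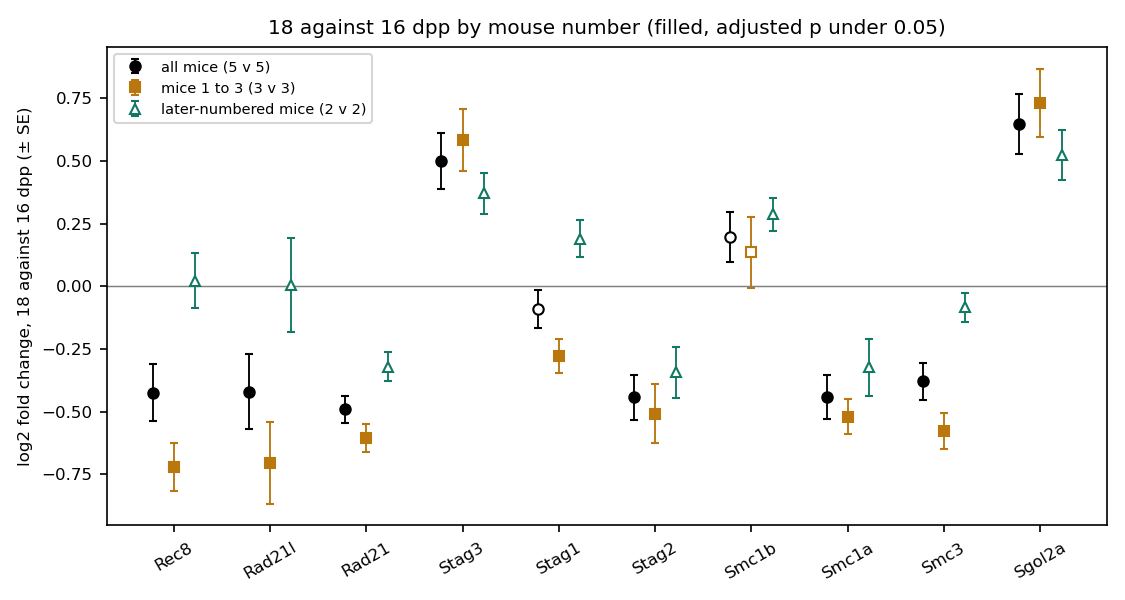
Log2 fold change from 16 to 18 dpp with its standard error in limma for all mice (black), mice 1 to 3 (brown) and the later-numbered mice (green); filled points passed an adjusted p of 0.05. The falls of Rec8, Rad21l and Smc3 are seen in mice 1 to 3 and lie near 0 in the later-numbered mice, whereas Stag3 and Sgol2a are above 0 and Rad21, Stag2 and Smc1a below 0 in both sets.

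Stag2 and Smc1a are X-linked, and X-linked genes had a lower median change than autosomal ones. The median change from 8 to 18 dpp over 652 X-linked genes was -0.56 on the log2 scale, against -0.06 over 14210 autosomal genes, and 62.3% of X-linked and 38.4% of autosomal genes were called lower. Smc1a changed by -0.39 (adjusted p = 0.00205) when mice 1 to 3 of 18 dpp were left out. Counted from the largest fall, Stag2 (-0.85) was gene 186 and Smc1a (-0.63) gene 283 of the 652. From 16 to 18 dpp the X-linked median was -0.40, close to the -0.44 of each of these genes, and their ranks were 261 and 264. The autosomal mitotic genes Rad21 and Stag1 lay on either side of these values from 8 to 18 dpp, at -1.29 and -0.39.

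In the adult spermatocytes the meiotic paralogs of the SMC1 and SA subunits made up nearly all of the mRNA of their part. Stag3 was at 443, 443, 416 and 440 TPM, Smc1b at 117, 107, 119 and 116 TPM, and Sgol2a at 63.6, 64.4, 62.8 and 63.5 TPM. Smc1a was at 0.78, 1.38, 1.05 and 1.25 TPM and Stag2 at 1.97, 2.42, 2.72 and 3.71 TPM. Within a sample, Smc1b made up 99.0% ± 0.260 of SMC1 TPM and Stag3 93.9% ± 0.458 of SA TPM (SD, n = 4), most of the rest being Stag1, at 25.3 TPM ± 1.61.

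The kleisins and Smc3 were low in the same adult samples. Rad21 was at 15.3, 17.8, 16.3 and 17.6 TPM, Rec8 at 10.9, 8.94, 12.4 and 12.4 TPM, and Smc3 at 10.4 TPM ± 1.15 (SD, n = 4). Rad21l was listed at 0, 0.7, 0.15 and 0 TPM. Rad21 exceeded Rec8 in all 4 samples, with Rec8 at 0.670 ± 0.114 times Rad21, and the 3 kleisins summed to 28.1 TPM ± 1.67, against 463 TPM ± 11.9 for the SA subunits. Summed SA TPM was 44.8 ± 5.76 times the Smc3 level in these samples. Dmc1 was also low, at 0.708 TPM on average. The 6 spermatocyte markers, Dmc1 among them, summed to 1443 TPM on average, with Piwil1 at 634 TPM, Sycp3 at 375 TPM and Sycp1 at 106 TPM. Markers of other cells were lower than in juvenile samples for Sertoli cells (345 TPM on average), peritubular cells (7.76 TPM), spermatogonia (10.4 TPM), macrophages (4.30 TPM), endothelial cells (2.44 TPM) and red blood cells (6.77 TPM), Leydig markers summed to 234 TPM, and spermatid markers summed to 1045 TPM, from 872 to 1189. The part of these cells in the adult levels was not tested.

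Transcript usage was tested for 4 of the 10 members. Of 23809 transcripts tested for their percent of the gene's TPM, at 16 and 18 dpp against 8 and 10 dpp, 2.58% passed with a change of at least 20 points (adjusted p under 0.05, limma), and none of the 21 tested transcripts of 4 cohesin genes did. Without a limit on size, 5 of these 21 passed, against 17.6% of all, and 8 had an unadjusted p under 0.05. The share of all transcripts under that unadjusted p was not counted. The main coding transcript of Stag3 (ENSMUST00000048028) went from 61.3% ± 6.98 of the gene's TPM over the 8 early mice to 74.4% ± 4.21 over the 10 late mice, a change of 12.2 points between means of ages (standard error 3.25, adjusted p = 0.00953). A Stag3 transcript with a retained intron (ENSMUST00000161113) went from 5.78% ± 2.01 to 2.32% ± 0.877 (adjusted p = 0.000469). Smc1b, Rad21 and Sgol2a were each read through 1 transcript.

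Genes that load, release, acetylate or cleave cohesin included higher and lower ones, in shares close to those of all genes. Of the 16 genes of this list, 15 were tested (Sgo2b stayed at or under 0.02 TPM on average), and from 8 to 18 dpp 4 were higher and 5 lower, where 31.8% of all genes were called higher and 36.3% lower, with a median change of -0.05 against -0.09 over all genes tested. The largest rise was in Meikin, a meiotic partner of the kinetochore that protects centromeric REC8, from 0.463 TPM ± 0.291 (SD, n = 3) to 24.5 TPM ± 4.61 (SD, n = 5). Its change was 4.13 on the log2 scale (standard error 0.24, adjusted p = 4.56e-14, limma), and 3.87 without mice 1 to 3 of 18 dpp. Nipbl, which loads the ring onto chromatin, rose by 1.04 (adjusted p = 7.77e-06), and by 0.53 without mice 1 to 3 of 18 dpp, where it was at 103 TPM in those mice and 56.2 TPM in mice 4 and 5. Espl1, the separase, rose by 0.67 (adjusted p = 3.21e-05), and by 0.32 without mice 1 to 3 of 18 dpp (adjusted p = 0.0111), with 61.4 TPM in those mice and 40.5 TPM in mice 4 and 5. Pttg1, the securin that holds separase inactive, rose by 0.96 (adjusted p = 5.85e-10), and by 0.73 without mice 1 to 3 of 18 dpp.

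The genes that fell were Ctcf (-0.70), the architectural factor at which cohesin halts, its germ cell paralog Ctcfl (-0.53), the acetyltransferase Esco2 (-0.47), the cofactor Pds5a (-0.31) and Cdca5 (-0.30), which encodes sororin. Their adjusted p ran from 3.56e-07 to 0.0201. Without mice 1 to 3 of 18 dpp, 4 of the 15 were higher and 3 lower, where 5936 and 5614 of all 20368 genes were, and Esco2 and Ctcfl no longer passed. From 10 to 12 dpp, when Rec8 and Rad21l rose, Meikin rose by 1.32 (adjusted p = 4.14e-05) and Pttg1 by 0.22 (adjusted p = 0.0479) and Ctcf fell by 0.36 (adjusted p = 0.00258).

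The other SMC complexes were higher at 18 than at 8 dpp more often than lower. All 14 genes of the condensin and SMC5/6 list were tested, 8 were higher and 2 lower (31.8% and 36.3% of all genes), and their median change was 0.28 against -0.09 over all genes. Smc4, the condensin ATPase subunit, went from 75.1 TPM ± 12.1 (SD, n = 3) to 289 TPM ± 40.2 (SD, n = 5), a rise of 1.93 (standard error 0.14, adjusted p = 2.66e-12, limma), while its partner Smc2 had a change of -0.16 (adjusted p = 0.115). Nsmce1 (1.18), Nsmce3 (0.63), Smc5 (0.57) and Smc6 (0.46), all of the SMC5/6 complex, rose, as did the condensin genes Ncapg (1.14), Ncaph (0.36) and Ncapd3 (0.20). Ncaph2 (-0.51) and Nsmce4a (-0.42) fell. Without mice 1 to 3 of 18 dpp, 7 were higher and 2 lower, where 5936 and 5614 of all 20368 genes were. Ncapd3 then no longer passed (adjusted p = 0.0984), and the rises of Nsmce3, Smc5 and Smc6 were 0.39, 0.28 and 0.26. Those of Smc4, Nsmce1 and Ncapg were 1.71, 0.90 and 1.04. In the adult samples Smc4 was at 542 TPM and Smc2 at 21.1 TPM on average. From 10 to 12 dpp, Smc4 rose by 0.53 (adjusted p = 0.00207) and Ncapg by 0.43 (adjusted p = 0.00126).

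**Figure D5:**
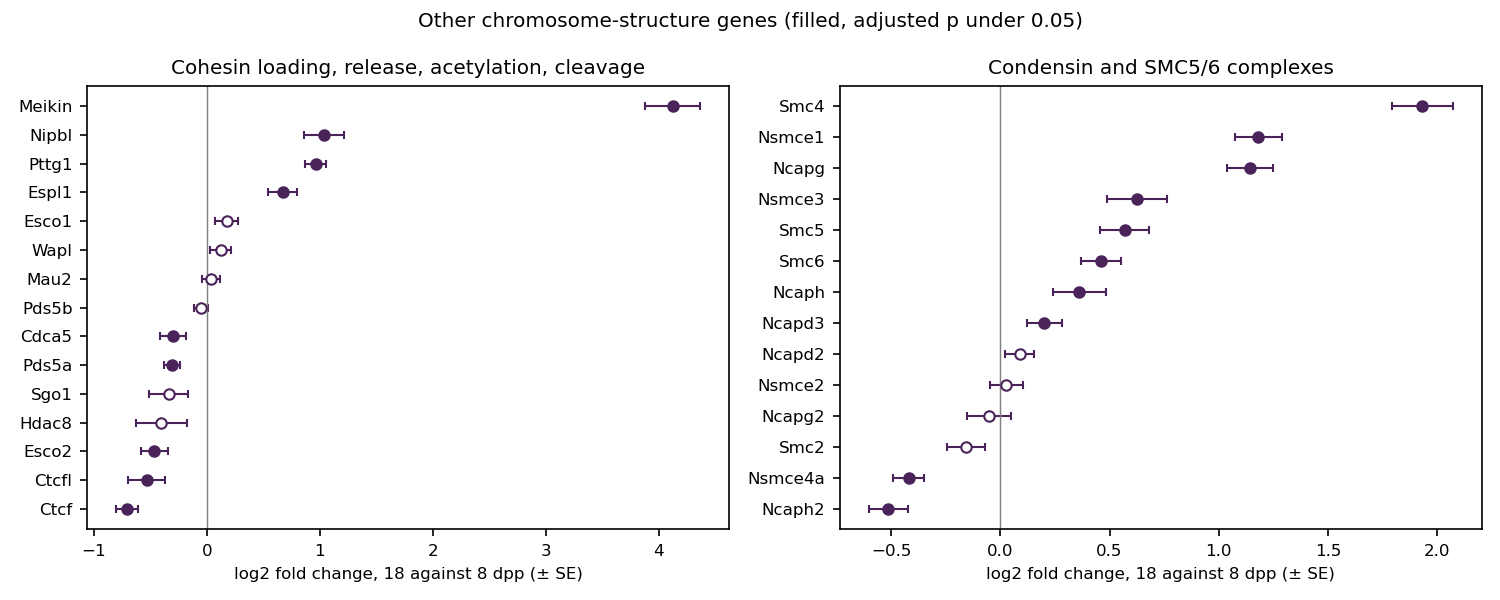
Log2 fold change from 8 to 18 dpp, with its standard error, of the tested cohesin regulators (left) and of the condensin and SMC5/6 genes (right); filled points passed an adjusted p of 0.05 in limma. Meikin (4.13) and Smc4 (1.93) have the largest rises of their lists, and Ctcf (-0.70) and Ncaph2 (-0.51) the largest falls.

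The genes with the most similar course over the 28 mice differed between the members. By the root mean square difference of centred log2(TPM + 1) among 10186 other genes of at least 10 TPM on average, Stag3 was nearest to Rnf6 (0.0991), Dcaf6 (0.102) and Kif24 (0.104), and Smc1b to Bub1 (0.108), a spindle checkpoint kinase, Ythdc2 (0.112), which is required for meiotic entry, and Asf1b (0.114), a histone chaperone. Rec8 was nearest to Gnai1 (0.140), Blmh (0.148) and Ilkap (0.149), and Rad21l to Ugt8a (0.172), Xlr4a (0.193) and Srbd1 (0.195). Rad21 was nearest to Fam168b (0.0686), Acly (0.0731) and Spin1 (0.0736). These distances share the ages and the libraries of all mice and describe only how alike the curves were.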

How the data were processed

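RNA of germ cells was sequenced by the authors as poly-A libraries with paired-end reads, filtered for quality and aligned with Bowtie 1.0.0 to transcripts of Ensembl, NONCODE and piRNA precursors on mm10, and RSEM 1.2.8 gave TPM. The deposited transcript table and the deposited adult table hold these TPM values. The deposited juvenile gene table holds another score, exp(log2(TPM + 1)) - 1, and was converted back to TPM. For the 10 members the result was within 0.02 TPM of the summed transcripts. The design had assumed TPM in this table.

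Each mouse was 1 sample. Differences between ages were fitted in limma 3.58.1 (R 4.3.3) on log2(TPM + 1), 1 coefficient per age and a prior variance following mean expression, over the 20368 genes with at least 3 TPM in at least 1 mouse, with Benjamini-Hochberg adjustment. A fold change on this scale understates that of low genes. Paralog ratios were compared with exact permutation tests in scipy 1.17.1. On simulated data limma recovered 94% of 200 genes changed by 1 on the log2 scale between 10 and 12 dpp among 20368 genes, and 6% of its calls were unchanged genes. Promoters came from RefSeq.

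The members, lists and tests were chosen with earlier results of these data known. The genes named are the 10 members, the listed regulators and SMC genes past the threshold, and the 3 nearest genes of 5 members. Smc2, Dmc1, Piwil1, Stra8, Sycp3 and Sycp1 were named after their values were seen. Marker lists covered Sertoli, Leydig, peritubular, macrophage, red blood cell, endothelial, spermatogonium, spermatocyte and spermatid genes. Alternatives covered the pseudocount, filter, scaling, prior, gene table, mouse number and leaving out each mouse. Leaving out mice 1 to 3 of 18 dpp and the later-numbered mice alone were chosen after seeing the data. Cytological counts were not used here.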

Additional observations from a re-analysis of the deposited data

Results flagged for a closer look

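Of 60 groups of 4 or 5 samples examined, 5 had 1 sample far from the others, and chance alone gives about 1 in 20 such groups. At 16 dpp mouse 1 had the highest Rad21l level, 23.8 TPM, where the other mice lay between 15.3 and 16.5 TPM, and the highest Sgol2a level, 30.7 TPM, where the others lay between 19.1 and 20.8 TPM. Mouse 1 of 12 dpp had the lowest Stag2 level, 34.4 TPM, against 41.1 to 42.6 TPM, and mouse 5 of 12 dpp the highest Smc1a level, 47.1 TPM, against 37.4 to 39.7 TPM. Adult sample 3 had the lowest Stag3 level, 416 TPM (415.5), against 440.3 to 442.6 TPM.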

How the results depend on the processing

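Read depth is unknown, so the spread between mice was the only error. Changes of single members were followed for 10 to 12, 14 to 16, 16 to 18 and 8 to 18 dpp. Under the settings other than leaving out 1 mouse, 379 of these changes kept their direction and their side of the threshold, 19 no longer passed, 20 newly passed and 12 changed sign. The paralog ratios were repeated only with another pseudocount and with the summed transcripts, which lie within 0.02 TPM of the gene values. All 20 of these differences kept their direction and side of the threshold. The ratio tests were not run under other scalings, in the sets of mice by number or without mice 1 to 3 of 18 dpp. The cause of each change was not tested. Among the calls over all genes, the alternatives moved the count from 8 to 10 dpp to 131 (replicate block) and 393 (without mice 1 to 3 of 18 dpp). From 12 to 14 dpp the count was 7 without a filter, 16 with median-of-ratios factors, 12 with quantile normalization, 0 with the replicate block, 1 in mice 1 to 3, 0 in later-numbered mice and 80 without mice 1 to 3 of 18 dpp. The later-numbered mice alone, 2 at each age, gave 1369 genes and 2 members from 10 to 12 dpp, 2570 genes and 3 members from 14 to 16 dpp, and 271 genes and 0 members from 16 to 18 dpp. The number of members from 14 to 16 dpp was 3 with median-of-ratios factors, 4 with quantile normalization, 5 with the replicate block, 4 in mice 1 to 3 and 5 without mice 1 to 3 of 18 dpp. From 16 to 18 dpp, leaving out mice 1 to 3 of 18 dpp left 3452 genes and 1 member. A limit of 10 in place of 20 points gave 1834 transcripts with changed usage, of which 1 belonged to a member.

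Within those comparisons the changes of sign, on the log2 scale, concerned differences that had not passed, except for Rec8 and Rad21l from 16 to 18 dpp. In later-numbered mice Smc3 stood at 0.0103 from 10 to 12 dpp, and from 14 to 16 dpp Rad21l stood at -0.0768, Stag3 at -0.0299 and Smc1b at -0.106. From 16 to 18 dpp the same mice gave 0.19 for Stag1, 0.022 for Rec8 and 0.00568 for Rad21l. Stag1 stood at 0.0487 from 14 to 16 dpp in mice 1 to 3, and from 16 to 18 dpp at 0.0754 with median-of-ratios factors and 0.0705 without mice 1 to 3 of 18 dpp. Rad21l from 8 to 18 dpp stood at 0.0657 with median-of-ratios factors and 0.199 without mice 1 to 3 of 18 dpp.

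Leaving out 1 mouse at a time gave from 106 to 288 genes from 8 to 10 dpp and from 2 to 129 genes from 12 to 14 dpp. From 14 to 16 dpp it gave from 1 to 3 members and from 3538 to 5395 genes. The Rec8 to Rad21 difference from 12 to 18 dpp ran from 0.133 to 0.248 and passed without mouse 3 of 12 dpp (adjusted p = 0.0353, exact test) or mouse 1 of 18 dpp (adjusted p = 0.0476, exact test), and the Stag3 to Stag1 difference from 10 to 12 dpp ran from 0.232 to 0.326. From 10 to 12 dpp Smc1a ran from -0.0207 to 0.0609 and Smc3 from -0.0535 to 0.00637, and from 8 to 18 dpp Rad21l ran from -0.223 to 0.0137.

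Same-numbered mice of different ages were about as alike as other mice of different ages. Over 57 pairs of same-numbered mice the correlation of deviations from the age means ran from -0.248 to 0.253 with a median of 0.0147, and 3 pairs were above 0.1. Over 268 pairs of different number it ran from -0.324 to 0.242 with a median of 0.000588, and 15 were above 0.1. The labels do not say whether the numbers mark a pairing or a batch, and these correlations cannot settle it. The replicate block, in which mice 6 and 7 of 14 dpp had levels of their own, moved only the counts given for it above by more than 1.5 times.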
